A study of Homo sapiens with 6 samples.

Results

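Amino acid transporter genes of 7 solute carrier families were compared between tumours overexpressing the A isoform of insulin receptor (IR-A) and control tumours. The members were chosen by name alone: every probe set whose gene symbol belongs to SLC1, SLC3, SLC6, SLC7, SLC36, SLC38 or SLC43. This gave 59 genes, each with 1 probe set, out of 24726 probe sets. They comprise 7 SLC1, 2 SLC3, 18 SLC6, 13 SLC7, 4 SLC36, 12 SLC38 and 3 SLC43 genes. Huh7, an established line of human hepatocellular carcinoma, was injected under the skin of nude mice to give the tumours. In 3 IR-A tumours the cells carried the plasmid pRcCMVi.hIR-A(GFP), and in 3 control tumours they carried the empty vector. Both kinds of cells had been stably transfected, selected with G418 and sorted for green fluorescence before injection. Each tumour was measured on 1 Affymetrix array, and a probe set here stands for 1 gene. The labels do not say whether the transfected cells were clones, how many mice were used or from which culture a tumour grew. P-values therefore reflect only how far these samples spread, and that spread may be technical.

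Amino acids cross membranes mainly through carriers, and most cells use several with overlapping substrates. SLC7 light chains such as LAT1 (SLC7A5) are exchangers that reach the cell surface as heteromers with a glycoprotein heavy chain of the SLC3 family, either 4F2hc (SLC3A2) or rBAT (SLC3A1). SLC38 and SLC1 carriers load cells with glutamine and other neutral amino acids, which the exchangers then trade for leucine and other essential ones, a supply that mTORC1 senses downstream of insulin. In normal liver, system N carriers such as SLC38A3 move glutamine, while LAT1 is low and is often raised in hepatocellular carcinoma.

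Values are log2 signals, so a difference of 1 is a 2-fold change in signal, and all differences are IR-A minus control. INSR, the overexpressed gene, read 10.65, 11.31 and 11.01 in IR-A tumours 1, 2 and 3 and 8.04, 7.61 and 8.47 in control tumours 1, 2 and 3, which fits the labels. Of all probe sets, 0 (0%) passed limma's test at an adjusted p of 0.05, while 14.1% had an unadjusted p under 0.05. Control tumour 2 stood apart from its group: across probe sets it correlated on average at 0.982 with the other controls and at 0.987 with the IR-A tumours. Array number limits the precision, and an exact permutation test of 3 against 3 tumours cannot go below p = 0.1. In bulk tumours, fewer cells of a type and less RNA per cell cannot be told apart. Hepatocyte and Huh7 markers were bright on every array, and 5 of 9 had an unadjusted p under 0.05 and a higher signal in IR-A tumours, with list means of 12.13 to 12.23 in IR-A and 11.81 to 12.04 in control tumours. The corresponding counts were 3 of 8 for fibroblast, 2 of 8 for macrophage, 1 of 8 for endothelial and 2 of 7 for neuron markers, all higher in IR-A tumours. At any p, the difference was above 0 in 6 of 8 fibroblast, 4 of 8 macrophage, 2 of 8 endothelial and 3 of 7 neuron markers. Their list means ran from 4.64 to 4.72 in IR-A and 4.23 to 4.41 in control tumours for fibroblast markers, and from 4.86 to 5.01 in IR-A and 4.54 to 4.77 in control tumours for macrophage markers. They ran from 4.0 to 4.03 in IR-A and 3.95 to 4.15 in control tumours for endothelial markers, and from 4.84 to 4.92 in IR-A and 4.80 to 5.06 in control tumours for neuron markers. Host cells in these tumours are mouse cells, and human probe sets read mouse RNA only where it binds. The counts therefore do not measure how many host cells a tumour held. The part of these cell types in the differences described next was not tested.

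No member passed after adjustment over all probe sets, and the lowest adjusted p among them was 0.140, while 0.0728% of all probe sets had an adjusted p under 0.1. At an unadjusted p under 0.05 there were 17 of 59 members (28.8%, against 14.1% of all probe sets), 9 higher (7.1% of all probe sets) and 8 lower (7.03% of all probe sets) in IR-A tumours. With a 1.5-fold difference added, 11 of 59 members remained (18.6%, against 5.95% of all probe sets). The lower side held 3 genes of the 4F2hc heteromers (SLC3A2, SLC7A5 and SLC7A6), the arginine carrier SLC7A1, the neutral amino acid carriers SLC1A5 and SLC38A1, the glycine carrier SLC6A9 and SLC38A6. The higher side held the cystine heteromer SLC3A1 and SLC7A9, the glutamine carrier SLC38A3, 4 SLC6 genes, SLC1A3 and SLC43A3. The median difference was -0.03 over all 59 members, against -0.03 over all probe sets. By family it was -0.06 for SLC1, 0.35 for SLC3, -0.06 for SLC6, -0.10 for SLC7, 0.03 for SLC36, 0.04 for SLC38 and 0.22 for SLC43. The size of the differences was larger than in the whole table, with a median absolute difference of 0.22 for the members and 0.13 for all probe sets. Groups did not overlap in 11 members (18.6%), a share close to that of all probe sets (17.2%), with 6 higher (7.73% of all probe sets) and 5 lower (9.45% of all probe sets).

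The share with small p rested on several arrays. Without IR-A tumour 1 it was 5 of 59 members (8.47%, against 8.72% of all probe sets), and 7 were left when IR-A tumour 2 was dropped (11.9%, against 10.8%). Dropping control tumour 1 gave 7 (11.9%, against 9%) and dropping control tumour 3 gave 8 (13.6%, against 11.7%). Dropping control tumour 2 gave 17 (28.8%, against 21.1%), and dropping IR-A tumour 3 gave 15 (25.4%, against 12%). A linear model without moderation of the variances gave 3 members (5.08%, against 9.46%). The list as a whole therefore did not stand apart from the table under every setting, and the results that follow are those of single genes. Of the 17 members with small p on all arrays, only SLC6A4, SLC7A5 and SLC43A3 kept it in limma whichever tumour was left out. The rest kept an unadjusted p under 0.05 in 1 (as SLC7A9) to 4 (SLC38A3) of these 6 runs.

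**Figure D1:**
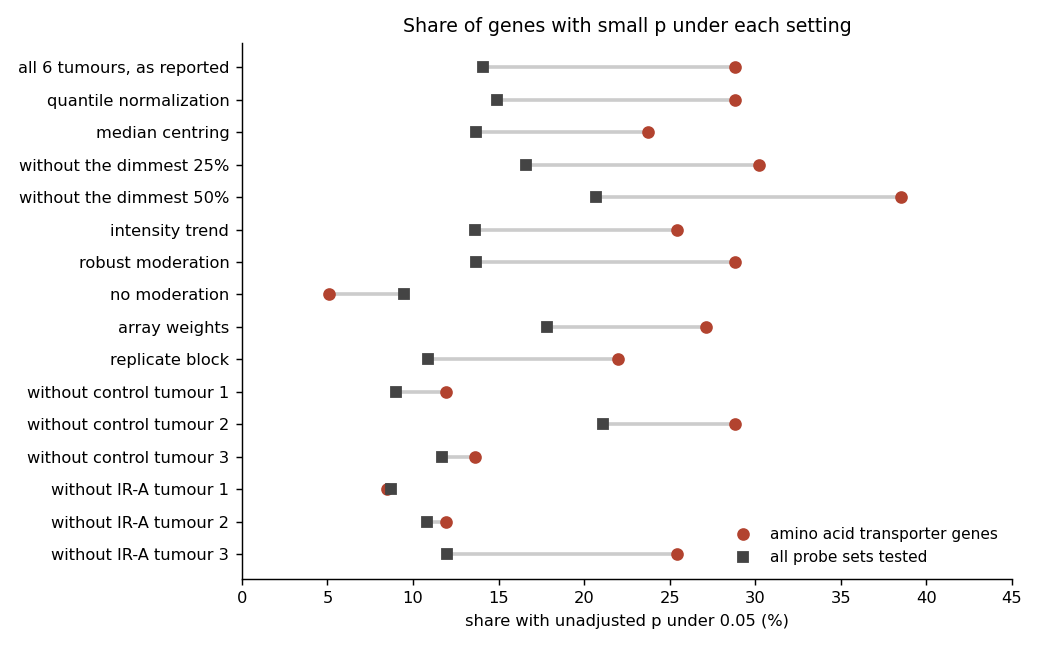
Share of genes with an unadjusted limma p under 0.05 (x axis, percent) under each setting (y axis), for the 59 amino acid transporter genes (circles) and for all probe sets tested (squares). The circle lies right of the square with all 6 tumours, 28.8% against 14.1%, and next to it without IR-A tumour 1, 8.47% against 8.72%.

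**Figure D2:**
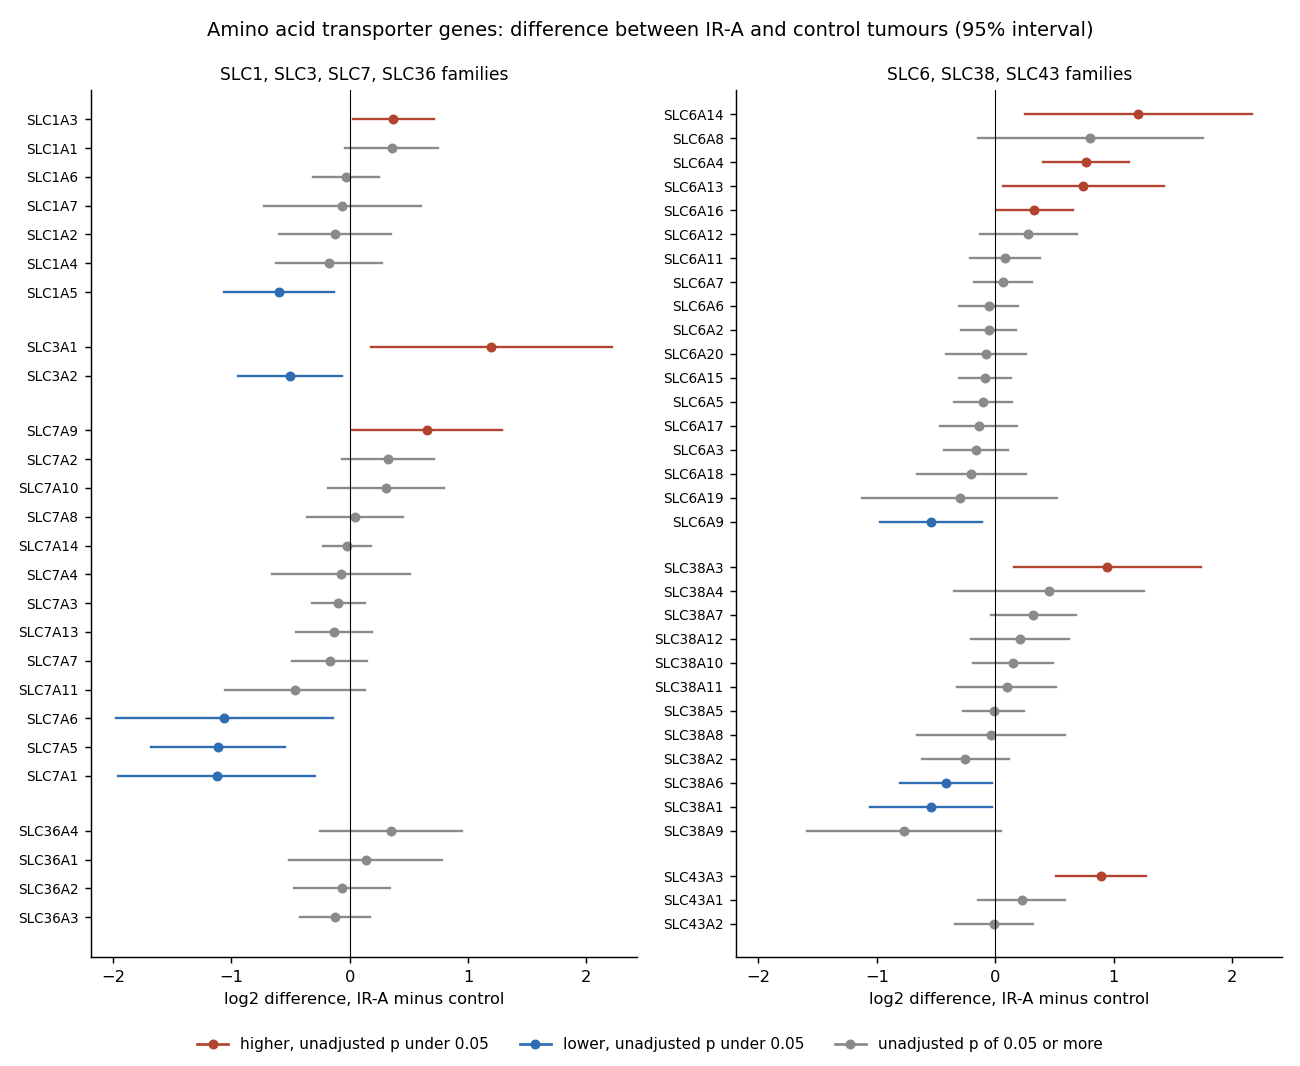
Log2 difference between IR-A and control tumours (x axis) with its moderated 95% interval for each of the 59 genes, grouped by family (y axis). The lowest differences belong to SLC7A1, SLC7A5 and SLC7A6, the highest to SLC6A14 and SLC3A1, and the 4 SLC36 genes lie around 0.

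Several members are known targets of ATF4, the transcription factor of the amino acid response, which binds a composite site called CARE, and of MYC, which binds the E-box. RefSeq promoter windows of build GRCh38.p14, from 250 bases before to 50 after a transcript start, were available for 45 of the 59 members, with 67 windows in all. The CARE letters TGATGNAA stood on either strand in 6 of these 67 windows (8.96%), each of a different gene, against 3.62% of all 35116 windows. Of these 6 genes, 4 were on the lower side at an unadjusted p under 0.05 (SLC7A1, SLC3A2, SLC1A5 and SLC38A1), 1 was on the higher side (SLC1A3) and SLC1A4 was on neither. The 6 matches are shown because 4 of them belong to lower genes, each as 30 bases of the gene's own strand with the match in capitals.
SLC7A1 (chr13:29595663-29595692, minus strand): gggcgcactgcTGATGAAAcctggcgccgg
SLC3A2 (chr11:62881719-62881748, plus strand, match on the opposite strand): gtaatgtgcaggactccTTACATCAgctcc
SLC1A5 (chr19:46784893-46784922, minus strand): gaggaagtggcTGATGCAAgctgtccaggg
SLC38A1 (chr12:46266502-46266531, minus strand): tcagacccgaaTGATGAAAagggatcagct
SLC1A4 (chr2:64989381-64989410, plus strand, match on the opposite strand): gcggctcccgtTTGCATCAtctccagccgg
SLC1A3 (chr5:36596357-36596386, plus strand): caggaaatgacTGATGCAAagcagggttaa

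The E-box CACGTG stood in 10 windows of members (14.9%, against 7.26% of all windows). Of their genes, SLC7A5 and SLC1A5 were on the lower side, SLC6A16 was on the higher side and the other 7 were on neither. The matches of the 2 lower genes are shown in the same way.
SLC7A5 (chr16:87869620-87869649, minus strand): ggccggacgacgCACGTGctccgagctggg
SLC1A5 (chr19:46787326-46787355, minus strand): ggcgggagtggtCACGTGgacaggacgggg
The antioxidant element TGACNNNGC, to which NRF2 binds, stood in 7 windows of members (10.4%, against 13.3% of all windows). Of their 7 genes, 5 were on the lower side, 1 on the higher and 1 on neither. These matches describe letters in a window and not binding. Among all 59 members, 8 were lower and 9 higher at an unadjusted p under 0.05. The directions of other genes with these letters were not counted. Whether ATF4, MYC or NRF2 has a part in the differences was not tested. The motifs do not overlap one another in the stretches shown.

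Of SLC3A2 and the 6 light chains that form the 4F2hc heteromers with it, 3 were lower and 0 higher at an unadjusted p under 0.05, and 4 were on neither side. The share was 42.9%, against 14.1% of all probe sets (7.03% lower and 7.1% higher). SLC7A5, the LAT1 light chain that imports leucine and other large neutral amino acids, read 8.12, 8.18 and 8.48 in IR-A tumours and 9.62, 8.85 and 9.65 in control tumours. All IR-A tumours lay below all control tumours, and control tumour 2 was the closest to them. The mean signal in IR-A tumours was 46.2% of that in control tumours, a log2 difference of -1.11 (95% interval -1.68 to -0.55, unadjusted p = 0.00256, adjusted p = 0.155). Without control tumour 2 the difference was -1.38 with an adjusted p of 0.0262 in limma, and SLC7A5 was then the 1 member called, while 1.25% of all probe sets were. Leaving out any other tumour raised the adjusted p of SLC7A5 above 0.155. That value was 0.418 without control tumour 1 and was highest without IR-A tumour 1.

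SLC3A2, the heavy chain 4F2hc that carries LAT1 to the surface, read 8.80, 8.29 and 8.81 in IR-A tumours and 9.09, 8.95 and 9.37 in control tumours. The groups did not overlap, though IR-A tumours 1 and 3 came close to control tumour 2. The difference was -0.50 (SE 0.18, unadjusted p = 0.0296, adjusted p = 0.297), and -0.33 without IR-A tumour 2. SLC7A6, the y+LAT2 chain that exchanges cationic for neutral amino acids, read 6.19, 5.27 and 6.55 in IR-A tumours and 7.56, 7.07 and 6.54 in control tumours. IR-A tumour 3 and control tumour 3 were level. The difference was -1.06 (SE 0.38, unadjusted p = 0.0298, adjusted p = 0.298), and -0.69 without IR-A tumour 2.

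SLC7A11, the xCT chain that imports cystine for glutathione in exchange for glutamate, was dim, at 3.94, 4.28 and 4.60 in IR-A tumours and 5.19, 4.42 and 4.60 in control tumours. The groups overlapped, and the difference of -0.46 (95% interval -1.05 to 0.13, adjusted p = 0.472) was -0.24 without control tumour 1. The light chain SLC7A10, which carries small neutral amino acids such as serine, differed by 0.31 (adjusted p = 0.572), by 0.11 when control tumour 1 was left out and by 0.51 when control tumour 3 was. It read 7.22, 7.25 and 7.41 in IR-A tumours and 6.58, 6.98 and 7.39 in control tumours, and lies outside the rule for named genes. The other 2 light chains were below the median level of all probe sets, with differences of -0.17 and 0.04.

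The rBAT heteromer, which reabsorbs cystine and cationic amino acids in kidney and gut, was on the other side. SLC3A1, the rBAT heavy chain, read 6.91, 6.45 and 6.30 in IR-A tumours and 4.42, 6.16 and 5.49 in control tumours. The controls spread widely (SD 0.32 in IR-A and 0.87 in control tumours, n = 3 each), with control tumour 2 just below the IR-A tumours and control tumour 1 far below. The difference was 1.20 (SE 0.43, 95% interval 0.18 to 2.22, unadjusted p = 0.0276, adjusted p = 0.293). It was 0.73 without control tumour 1 and 1.60 without control tumour 2.

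SLC7A9, the light chain that pairs with rBAT, read 6.89, 6.29 and 6.29 in IR-A tumours and 5.41, 6.29 and 5.82 in control tumours. IR-A tumours 2 and 3 and control tumour 2 shared 1 value, and the other controls lay below all IR-A tumours. The difference was 0.65 (SE 0.27, unadjusted p = 0.0450, adjusted p = 0.343), and 0.44 without control tumour 1. Across the arrays SLC3A1 and SLC7A9 were both highest in IR-A tumour 1 and lowest in control tumour 1, as were SLC6A4, SLC6A13 and SLC38A3. The other rBAT partner was dim and differed by -0.14.

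**Figure D3:**
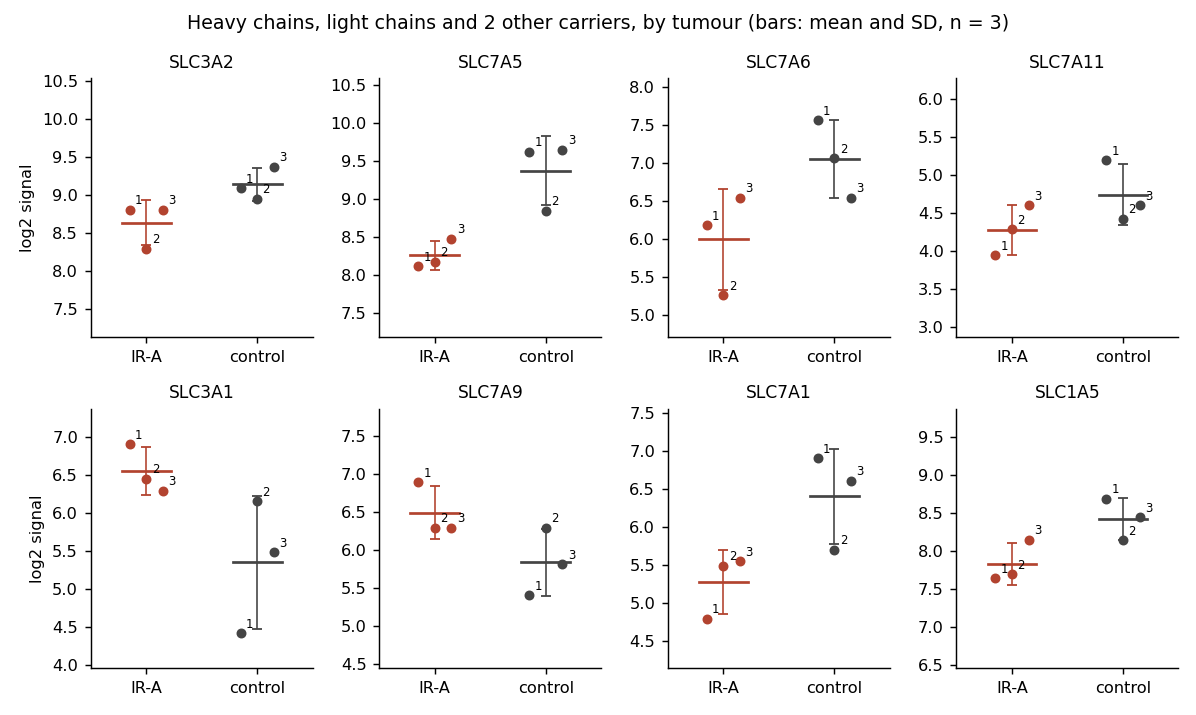
Log2 signal (y axis) of 8 genes in each tumour (points, numbered as in the labels), with the mean and SD of the 3 IR-A tumours on the left and the 3 control tumours on the right. Every panel spans the same range on the log2 scale. SLC7A5, SLC3A2 and SLC7A1 are below every control in all IR-A tumours, SLC3A1 is above every control, and control tumour 2 is the control nearest to the IR-A tumours in these 4 panels.

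Among the cationic amino acid carriers and their relatives, SLC7A1 (CAT1, the widely expressed arginine and lysine importer) had the lowest difference of all 59 members. It read 4.79, 5.49 and 5.55 in IR-A tumours and 6.90, 5.70 and 6.61 in control tumours, a difference of -1.12 (SE 0.35, unadjusted p = 0.0158, adjusted p = 0.243). The groups did not overlap, with control tumour 2 next to IR-A tumours 2 and 3. The difference was -0.87 without control tumour 1 and -1.48 without control tumour 2. SLC7A2, the CAT2 gene whose low-affinity form is typical of liver, read 10.03, 10.37 and 10.06 in IR-A tumours and 9.91, 9.54 and 10.03 in control tumours. It differed by 0.32 (unadjusted p = 0.0913, adjusted p = 0.449), or by 0.18 with control tumour 2 left out, is outside the rule for named genes, and had IR-A tumour 1 and control tumour 3 level. The remaining 3 relatives differed by -0.10 to -0.02.

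In the SLC1 family, 1 gene was lower and 1 higher at an unadjusted p under 0.05 (28.6%, against 14.1% of all probe sets). SLC1A5, the ASCT2 exchanger that brings glutamine into cells, read 7.64, 7.69 and 8.15 in IR-A tumours and 8.69, 8.14 and 8.44 in control tumours. IR-A tumour 3 and control tumour 2 were level and the other tumours separated. The difference was -0.60 (SE 0.19, unadjusted p = 0.0191, adjusted p = 0.257), and -0.46 without control tumour 1. Its relative SLC1A4 (ASCT1) read 7.29, 7.01 and 7.43 in IR-A tumours and 7.15, 7.35 and 7.76 in control tumours, with overlapping groups and a difference of -0.17 (95% interval -0.62 to 0.27). With control tumour 3 left out the difference was -0.0039.

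The glutamate carriers of SLC1 were mostly dim, with 4 of 5 below the median level. SLC1A3 (EAAT1) read 4.26, 4.38 and 4.59 in IR-A tumours and 4.16, 4.16 and 3.80 in control tumours, a difference of 0.37 (SE 0.14, unadjusted p = 0.0391, adjusted p = 0.329). The groups did not overlap, by a narrow margin, and the difference was 0.25 without control tumour 3. SLC1A1 (EAAT3) read 4.40, 3.81 and 4.24 in IR-A tumours and 3.90, 3.70 and 3.80 in control tumours, a difference of 0.36 (unadjusted p = 0.0692, adjusted p = 0.407). IR-A tumour 2 lay among the controls, and the difference was 0.23 with IR-A tumour 1 left out.

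In the SLC38 family, 1 gene was higher and 2 were lower at an unadjusted p under 0.05 (25%, against 14.1% of all probe sets). SLC38A3 (SNAT3), the system N carrier that moves glutamine in hepatocytes, read 11.75, 11.48 and 11.33 in IR-A tumours and 9.79, 11.03 and 10.89 in control tumours. All IR-A tumours lay above all controls, and control tumour 1 was well below the rest. The difference was 0.95 (SE 0.33, unadjusted p = 0.0253, adjusted p = 0.284), and 0.56 without control tumour 1. The other system N gene was dim and differed by -0.01.

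Of the 3 system A carriers, which import small neutral amino acids with sodium, 1 was lower at an unadjusted p under 0.05. With 0 higher, the share was 33.3%, against 14.1% of all probe sets. SLC38A1 (SNAT1) read 9.59, 9.68 and 10.02 in IR-A tumours and 10.73, 9.99 and 10.18 in control tumours, with IR-A tumour 3 level with control tumour 2. The difference was -0.54 (SE 0.22, unadjusted p = 0.0427, adjusted p = 0.337), and -0.33 without control tumour 1. SLC38A2 (SNAT2), which is induced by amino acid shortage, read 11.37, 11.21 and 11.69 in IR-A tumours and 11.80, 11.50 and 11.72 in control tumours. The groups overlapped (difference -0.25, 95% interval -0.62 to 0.11, adjusted p = 0.533), and the difference was -0.14 with IR-A tumour 2 left out and -0.39 with IR-A tumour 3 left out. SLC38A4 (SNAT4), the form typical of liver, differed by 0.45 (95% interval -0.35 to 1.26, adjusted p = 0.618), reading 9.34, 8.89 and 9.49 in IR-A tumours and 8.71, 9.48 and 8.18 in control tumours. Control tumour 2 was as high as the IR-A tumours there. The difference was 0.15 with control tumour 3 left out and 0.80 with control tumour 2 left out, and the gene lies outside the rule for named genes.

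Lysosomal members of SLC38 did not share a direction. SLC38A9, the arginine sensor that signals to mTORC1 from the lysosome, read 6.78, 5.92 and 6.74 in IR-A tumours and 7.63, 7.52 and 6.60 in control tumours. Control tumour 3 lay among the IR-A tumours, and the difference of -0.77 (95% interval -1.59 to 0.05, unadjusted p = 0.0615, adjusted p = 0.388) was -0.49 when IR-A tumour 2 was left out and -1.09 when control tumour 3 was. SLC38A7, a lysosomal glutamine exporter outside the rule, read 6.55, 6.25 and 6.35 in IR-A tumours and 6.02, 6.31 and 5.84 in control tumours (difference 0.32, adjusted p = 0.410, and 0.21 with control tumour 3 left out). SLC38A6, a less studied member, read 6.47, 6.09 and 6.68 in IR-A tumours and 6.87, 6.88 and 6.72 in control tumours. Its groups did not overlap, and the difference was -0.41 (SE 0.16, unadjusted p = 0.0404, adjusted p = 0.333), or -0.25 without IR-A tumour 2. The 9 SLC38 genes with an unadjusted p of 0.05 or more differed by -0.77 to 0.45.

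The SLC6 family holds sodium- and chloride-dependent carriers of neurotransmitters, osmolytes and amino acids. At an unadjusted p under 0.05, 4 of 18 were higher and 1 lower (27.8%, against 14.1% of all probe sets). SLC6A4, the serotonin transporter, read 7.45, 7.32 and 7.22 in IR-A tumours and 6.29, 6.81 and 6.58 in control tumours. The groups did not overlap (SD 0.12 in IR-A and 0.26 in control tumours, n = 3 each). The difference was 0.77 (SE 0.15, unadjusted p = 0.00170, adjusted p = 0.147), and 0.89 with an adjusted p of 0.0513 without control tumour 2. Leaving out any other tumour raised the adjusted p above 0.147. That value was 0.377 without control tumour 1 and was highest without IR-A tumour 1.

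SLC6A14, a concentrating carrier of neutral and cationic amino acids (ATB0,+), had the highest difference of all members, 1.21 (SE 0.40, unadjusted p = 0.0208, adjusted p = 0.266). It read 5.74, 4.37 and 5.93 in IR-A tumours and 4.35, 4.0 and 4.07 in control tumours. IR-A tumours 1 and 3 carried the difference, while IR-A tumour 2 was level with control tumour 1. SLC6A13 (GAT2), a GABA and taurine carrier of liver and kidney, read 5.30, 4.84 and 4.62 in IR-A tumours and 3.70, 4.70 and 4.13 in control tumours. Control tumour 2 lay between IR-A tumours 2 and 3 (difference 0.74, SE 0.28, unadjusted p = 0.0364, adjusted p = 0.320). Without control tumour 1 the difference was 0.51. SLC6A16, a dim orphan member outside the rule, differed by 0.33 (unadjusted p = 0.0466, adjusted p = 0.347) with touching groups. It differed by 0.25 without IR-A tumour 1.

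On the lower side of SLC6, the glycine carrier SLC6A9 (GlyT1) read 5.87, 6.10 and 6.58 in IR-A tumours and 6.75, 6.70 and 6.73 in control tumours. The controls were almost equal, and all IR-A tumours lay below them by differing amounts (difference -0.54, SE 0.18, unadjusted p = 0.0217, adjusted p = 0.269). Without IR-A tumour 1 the difference was -0.38. SLC6A8, the creatine carrier, read 11.10, 11.42 and 10.76 in IR-A tumours and 9.82, 9.83 and 11.21 in control tumours. Control tumour 3 lay among the IR-A tumours, so the difference of 0.80 (95% interval -0.15 to 1.76, adjusted p = 0.440) was 1.27 without it. The 13 SLC6 genes with an unadjusted p of 0.05 or more differed by -0.30 to 0.80.

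**Figure D4:**
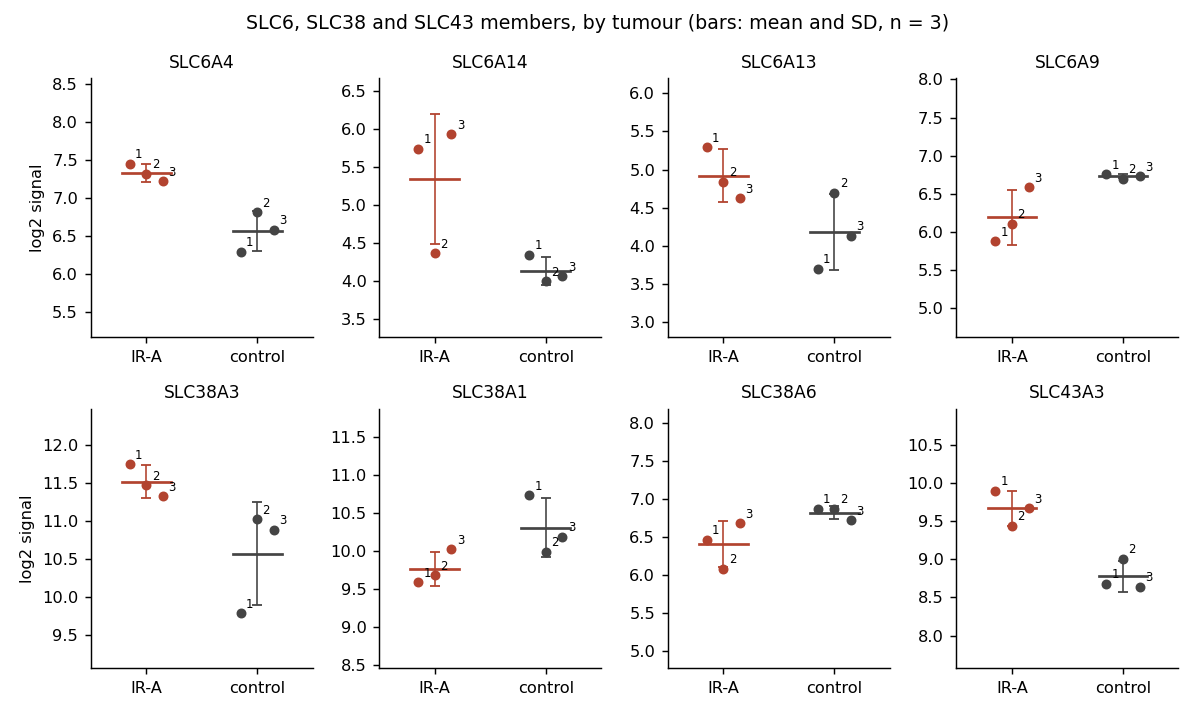
Log2 signal (y axis) of 8 members of SLC6, SLC38 and SLC43 in each tumour (points, numbered as in the labels), with the mean and SD of the 3 IR-A tumours on the left and the 3 control tumours on the right, on panels of equal range. The groups do not overlap in SLC43A3, SLC6A4, SLC6A9, SLC38A3, SLC38A6 and, by a narrow margin, SLC6A14. IR-A tumour 2 stands apart from its group in SLC6A14.

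SLC43A3 had the smallest unadjusted p of all members. Although a family member by sequence, it carries purine nucleobases. It read 9.90, 9.45 and 9.67 in IR-A tumours and 8.68, 9.01 and 8.64 in control tumours, a mean signal 1.86-fold higher in IR-A tumours. The groups did not overlap (difference 0.90, SE 0.16, unadjusted p = 0.000935, adjusted p = 0.140), and without control tumour 2 the adjusted p was 0.0521. Leaving out any other tumour raised the adjusted p above 0.140. That value was 0.379 without control tumour 1 and was highest without IR-A tumour 1. The amino acid carriers of the family had smaller differences: SLC43A1 (LAT3) differed by 0.22 (adjusted p = 0.584), or 0.10 with control tumour 1 left out, and SLC43A2 (LAT4) by -0.01 (adjusted p = 0.988), with overlapping groups in both.

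The proton-coupled SLC36 carriers, which export amino acids from lysosomes or take them up at the cell surface, had overlapping groups. None of the 4 had an unadjusted p under 0.05, against 14.1% of all probe sets. Their differences ran from -0.12 to 0.35. SLC36A1, a lysosomal exporter, was nearly constant at 6.71, 6.69 and 6.69 in IR-A tumours and read 5.99, 6.56 and 7.13 in control tumours. SLC36A4 read 7.45, 7.06 and 7.17 in IR-A tumours and 7.17, 7.16 and 6.32 in control tumours (difference 0.35, 95% interval -0.25 to 0.95). Control tumour 3 was the low one, and with it left out the difference was 0.07. SLC36A2 and SLC36A3 were dim, with differences of -0.07 and -0.12, and that of SLC36A3 was -0.0054 with control tumour 1 left out.

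Over the 59 members, spread within a group was larger among controls, with a median SD of 0.19 in IR-A and 0.24 in control tumours (n = 3 each), as over all probe sets (0.14 in IR-A and 0.17 in control tumours). Of the 17 members with small p, control tumour 2 was the control nearest to the IR-A mean in 13, against 58.8% of the probe sets with small p in the whole table. The 20 members below the median level of all probe sets (4.71) held 3 of the 17 (15%), and the 39 brighter ones held 14 (35.9%). The share of all probe sets at any level was 14.1%.

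The genes that work with these carriers were described from 5 further lists, whose counts stand against 14.1% of all probe sets with an unadjusted p under 0.05 (7.1% higher and 7.03% lower). Of 26 measured genes of the ATF4 amino acid response, 3 were higher and 5 lower at an unadjusted p under 0.05 (30.8%, against 14.1% of all probe sets), with a median difference of -0.15. PYCR1 (proline synthesis), MTHFD2 (mitochondrial folate metabolism) and ASNS (asparagine synthetase) differed by -0.91, -0.91 and -1.06. ASNS read 6.0, 6.99 and 6.97 in IR-A tumours and 7.95, 7.17 and 8.03 in control tumours, with control tumour 2 nearest to the IR-A tumours, as for SLC7A5. ATF4 itself differed by -0.33, or -0.21 with control tumour 2 left out, and EIF2S1 by -0.46, or -0.29 with IR-A tumour 2 left out. PSPH, an enzyme of serine synthesis, VLDLR and ATF5 were on the higher side at 0.33, 0.56 and 0.33. No gene of these lists passed after adjustment, and the lowest adjusted p was 0.147.

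Of 17 partners and regulators of the carriers, 0 were higher and 3 lower at an unadjusted p under 0.05, a share of 17.6% that is near the 14.1% of all probe sets. They were MYC at -1.24, MYCN at -0.86 and LAPTM4B, which brings LAT1 to lysosomes, at -0.54. MYC read 6.02, 5.60 and 6.19 in IR-A tumours and 8.08, 7.14 and 6.31 in control tumours, so control tumour 3 was close to the IR-A tumours. Its difference was -0.79 with control tumour 1 left out and -1.67 with control tumour 3 left out. USP9X and EPAS1 differed by 0.49 and 0.34 without reaching that threshold. These were 0.30 for USP9X with IR-A tumour 2 left out and 0.22 for EPAS1 with control tumour 1 left out.

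Of 21 carriers of amino acids and peptides outside the 7 families, 4 were higher and 0 lower (19%, against 14.1% of all probe sets). SLC15A1, the peptide transporter PEPT1 of gut and kidney brush borders, read 8.15, 7.44 and 7.17 in IR-A tumours and 4.69, 6.28 and 5.96 in control tumours, a difference of 1.94 (SE 0.45, adjusted p = 0.166). As with SLC3A1 and SLC7A9, IR-A tumour 1 was highest and control tumour 1 lowest. That order also held for SLC16A10, SLC15A4, SLC6A4, SLC6A13 and SLC38A3, so it is not particular to them. SLC16A10 (TAT1), which lets aromatic amino acids leave cells, read 7.89, 7.81 and 7.63 in IR-A tumours and 6.75, 7.25 and 7.02 in control tumours (difference 0.77, adjusted p = 0.147). The lysosomal SLC15A4 and the dim SLC17A8 differed by 0.69 and 0.42. CTNS and SLC25A29, the lowest by p on the other side, differed by -0.23 and -0.13. With IR-A tumour 2 left out CTNS differed by -0.10, and with control tumour 1 left out SLC25A29 differed by -0.09.

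Of 36 measured genes of amino acid sensing by mTORC1, 5 were higher and 2 lower at an unadjusted p under 0.05 (19.4%, close to the 14.1% of all probe sets), with a median difference of 0.01. Of the sestrin genes, SESN1 and SESN3 differed by 0.96 and 0.82. SESN2, which encodes a leucine sensor and lies outside the rule, differed by 0.39 (unadjusted p = 0.0710, adjusted p = 0.411), or 0.18 with IR-A tumour 1 left out. The methionine pathway sensor SAMTOR differed by 0.51, and the Rag GTPases RRAGC and RRAGD by 0.49 and 0.53. RRAGC differed by 0.29 with control tumour 1 left out, and RRAGD by 0.33 with IR-A tumour 2 left out. SEH1L and MLST8 were on the lower side at -0.54 and -0.26. The list named glutathione synthesis holds 12 measured genes and also takes in genes of glutathione use and breakdown. Of these 12, 2 were higher and 3 lower (41.7%, against 14.1% of all probe sets). ANPEP and GSS differed by 0.56 and 0.30, and GGT7, GCLC (the rate-limiting subunit of synthesis) and GPX1 by -0.43, -0.40 and -0.40. Among these named genes GSS and GCLC act in synthesis itself, and their directions were opposite.

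**Figure D5:**
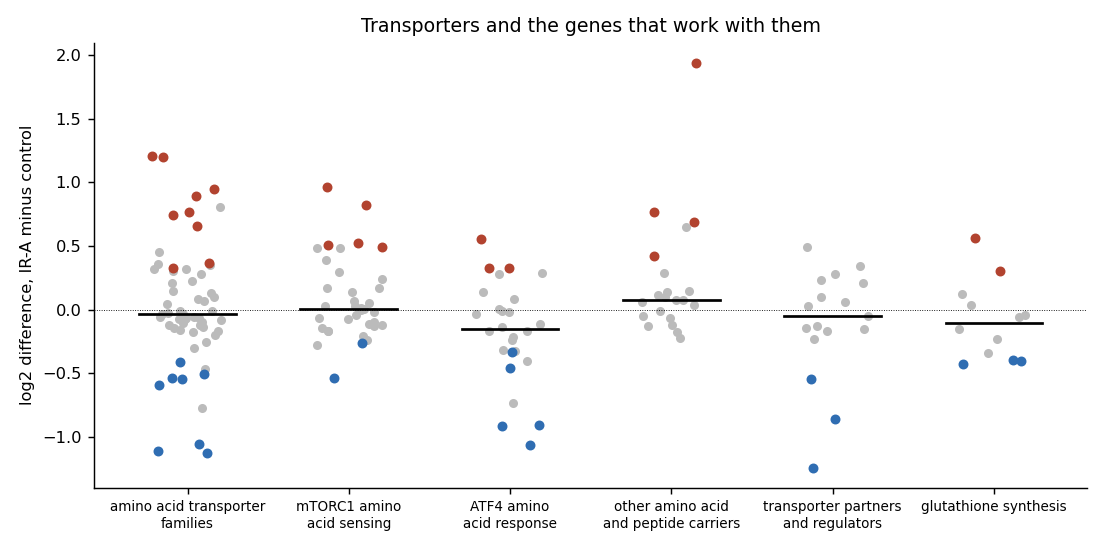
Log2 difference between IR-A and control tumours (y axis) of every measured gene of the amino acid transporter families and of 5 related lists (x axis). Coloured points have an unadjusted p under 0.05 and bars are list medians, all between -0.15 and 0.08, while single genes reach from -1.24 (MYC) to 1.94 (SLC15A1).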

How the data were processed

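Per the labels, total RNA of 6 tumours was extracted with Trizol, converted to biotin-labelled sense-strand DNA and hybridized to Affymetrix whole-transcript arrays. The authors deposited 1 log2 signal for each probe set and array. The submitters' processing notes name RMA and Partek but neither version nor role. The sources used here give no genome build and no probe set definition. That the scale is log2 was read from the range of the values.

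Symbols came from GEO's probe annotation, and all 59 members matched RefSeq (GRCh38.p14) by gene ID with the same symbol. Signal shared between paralogs was not checked. IR-A and control tumours were compared with limma 3.58.1 in R 4.3.3 (lmFit, eBayes, no filter) over all 24726 probe sets with Benjamini-Hochberg adjustment. SE and 95% intervals are moderated. The members and lists were chosen with earlier results of these data known. Named were INSR, 6 core members, up to 4 genes of smallest p per family, the 5 highest and 5 lowest differences, and up to 2 genes per direction in each other list. Other members named are stated as outside the rule, and further names in the other lists, apart from SESN2, complete the genes with an unadjusted p under 0.05. At most 4.15% of values were identical between any 2 arrays. In 20 simulated data sets of 24726 probe sets for 3 against 3 tumours, 92.8% of probe sets given a log2 change of 2 were called, as were 0.0424% of unchanged ones. Every member differed by less than that change (-1.12 to 1.21), and smaller changes were not simulated, so the share recovered does not apply to the members. In the measured data INSR, at 2.95, had an adjusted p of 0.0769 in limma and was not called. Alternatives were other normalizations, filters on dim probe sets, moderation settings, weights, a replicate block and leaving out each tumour.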

Additional observations from a re-analysis of the deposited data

How the results depend on the processing

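Signal over background was not given per probe set, so differences of dim members are the least certain. The count of members called after adjustment was 0 in every setting run that kept all tumours, and 0 to 1 with 1 tumour left out (SLC7A5, without control tumour 2). At an adjusted p under 0.1 it was 0 as reported, but SLC7A5, SLC6A4 and SLC43A3 passed that limit with array weights (adjusted p of 0.0808, 0.0809 and 0.0746) and without the dimmest 50% of probe sets (0.0848, 0.0878 and 0.081). The share of all probe sets under that limit was not counted for these settings. At an unadjusted p under 0.05 they took in 17.8% and 20.7% of all probe sets tested, against 14.1% as reported. Without control tumour 2, SLC7A5, SLC6A4, SLC43A3, SLC7A1 and SLC3A1 also passed it (limma adjusted p of 0.0262, 0.0513, 0.0521, 0.0646 and 0.0930). In that run 21.1% of all probe sets had an unadjusted p under 0.05. Array weights counted control tumour 2 least (weight 0.476). The count at an unadjusted p under 0.05, 17 as reported, was 3 without moderation, 11 with an added 1.5-fold difference and 5 to 17 with 1 tumour left out. The shares of all probe sets were 14.1% as reported, 9.46% without moderation and 5.95% with the added difference. They were 8.72% to 21.1% with 1 tumour left out. Members whose groups did not overlap, 11 as reported, were 18 after quantile normalization (30.5%, against 20% of all probe sets) and 13 to 27 with 1 tumour left out (22% to 45.8%, against 22.8% to 38.8% of all probe sets). Without the dimmest 25% of probe sets, which removes dim members, the median difference was 0.068 for SLC6, against -0.06 as reported, and 0.13 for SLC36, which was 0.03 as reported, 0.24 without the dimmest 50% and -0.033 to 0.082 with 1 tumour left out. INSR (2.95) was called at the same difference of 2.95 without the dimmest 25% or 50%, at 2.87 with array weights, and without control tumour 2 (2.74 to 3.17 over the left-out tumours). Of 33 members named, 30 had 1 direction under all settings that tested them, the 17 with small p among them. The others were SLC36A1 (-0.15 to 0.42 over left-out tumours), SLC36A2 (-0.24 to 0.097) and the SLC43A2 difference (0.0057 after median centring and -0.12 to 0.081 over left-out tumours), and the cause was not tested. All 32 genes named from other lists kept their direction. Filters on dim probe sets, moderation settings and the replicate block leave the difference of a gene unchanged. Only the normalizations, array weights and left-out tumours could therefore turn a direction. Many of these genes were also named for a small p on the same arrays, which makes a kept direction likely beforehand. A kept direction is not a kept small p. Of the 17, only SLC6A4, SLC7A5 and SLC43A3 stayed under an unadjusted p of 0.05 in limma whichever tumour was left out. Same-numbered tumours did not deviate together (correlations of -0.29, -0.36 and 0.02), so the numbers were not taken as pairs, and with the replicate block 13 members had an unadjusted p under 0.05 (22%, against 10.9% of all probe sets) and 0 were called.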
